A study of Mus musculus with 11 samples.

Results

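The genes described here are the NRF2 and glutathione detoxification genes, a list of 47 mouse genes that encode the NRF2 transcription factor, its inhibitor KEAP1, and the enzymes, pumps and ferritin chains that protect cells against oxidants and reactive chemicals. A gene was a member if its symbol stood on that list. The array named 43 of them among 23185 named genes, and Prdx6, G6pdx, Gsta1 and Gsta2 were not analysed here. A further list of 55 genes of the same pathways, of which 50 were measured, was kept apart from them and is described after them.

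NRF2, encoded by Nfe2l2, is held at a low level by KEAP1, which hands it to an ubiquitin ligase for destruction. Oxidants and electrophiles modify cysteines of KEAP1, after which NRF2 accumulates, pairs with a small MAF protein and binds antioxidant response elements near its target genes. In liver these targets are best known for the making of glutathione, its transfer onto foreign chemicals and bile constituents, and the supply of the NADPH that such reactions consume.

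The study sorted YFP+ cells from livers of mice in which a fluorescent lineage mark labels biliary cells, and measured total RNA on 1-colour Affymetrix MoGene 2.0 ST arrays. There were 11 arrays in 4 groups: YFP+ cells from mice given CDE (n = 3), YFP+ cells from mice given the DDC diet (n = 3), YFP+ cells from untreated mice (UTR, n = 2) and YFP- cells from untreated mice (n = 3). CDE is commonly a choline-deficient diet supplemented with ethionine, which injures hepatocytes, and DDC a diet with a dihydrocollidine that blocks heme synthesis and injures bile ducts. The protocol in the labels, the same text for every sample, gives 5 weeks of DDC and 4 mice, and no duration for CDE. All cells came from the non-parenchymal pellet of collagenase-digested liver, sorted on a gate set with wild-type animals and with dead cells left out. The labels name no Cre driver, strain, sex or age. The labels call all 4 groups liver progenitor cells and give no animal for an array. If arrays of 1 group share an animal, the spread behind every p-value is partly or wholly technical.

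The 3 YFP- arrays were more unlike each other (pairwise r over all named genes 0.888 to 0.925) than the 8 YFP+ arrays (0.98 to 0.991). The mean level of 6 measured biliary markers of 8 listed was 9.98 to 10.35 on the YFP+ arrays, against 7.83, 4.94 and 4.63 on YFP- replicates 1, 2 and 3, so the name in the labels did not match the YFP- group and replicate 1 of it held biliary transcripts. The 6 endothelial markers averaged 10.24 to 11.76 on the YFP- arrays against 5.17 to 6.06 on the YFP+ arrays, and 6 macrophage markers 8.75, 8.69 and 11.56 against 5.88 to 7.15. The 5 lymphocyte markers measured averaged 10.61 on YFP- replicate 2 and 4.49 and 4.84 on replicates 1 and 3. The 10 hepatocyte markers averaged 8.58 on CDE replicate 2, 7.24 to 7.53 on the other YFP+ arrays, and 7.10, 8.23 and 8.84 on the YFP- arrays. In such bulk samples, fewer cells of a type and less RNA per cell cannot be told apart.

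Of the 43 measured members, 13 were higher and 1 was lower in untreated YFP+ than in untreated YFP- cells (32.6% of members, against 18.9% of all 23185 genes, 10.4% higher and 8.46% lower), by limma at a Benjamini-Hochberg adjusted p under 0.05 over all genes. With the 3 YFP+ groups averaged, 17 were higher and 3 lower (46.5% of members, against 30.5% of all genes, 16.3% higher and 14.3% lower). The median difference over the members was 0.33 log2 units for UTR and 0.44 for the YFP+ mean (0.25 without YFP- replicate 2), against -0.01 and 0.00 over all genes. The values are log2 expression values, so a difference of 1 is a doubling. The members higher in YFP+ cells were mainly glutathione S-transferases, microsomal transferases and glutathione synthesis enzymes, while Nfe2l2, Keap1, the thioredoxin group, the quinone and carbonyl enzymes and the ferritin chains gave no call. All 8 YFP+ arrays lay above all 3 YFP- arrays for 14 members (13.9% of all genes did so) and below them for 3 (11.7% of all genes), and the other 26 overlapped. The YFP- arrays spread over more than 1 log2 unit for 17 members and the YFP+ arrays for 8. Replicate 3 was the highest of the YFP- arrays for 21 members, replicate 1 for 13 and replicate 2 for 9. Ranges and highest arrays were not counted over all genes. The median SD over all genes was 0.26 in YFP- cells and 0.12, 0.15 and 0.11 in CDE, DDC and UTR.

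**Figure D1:**
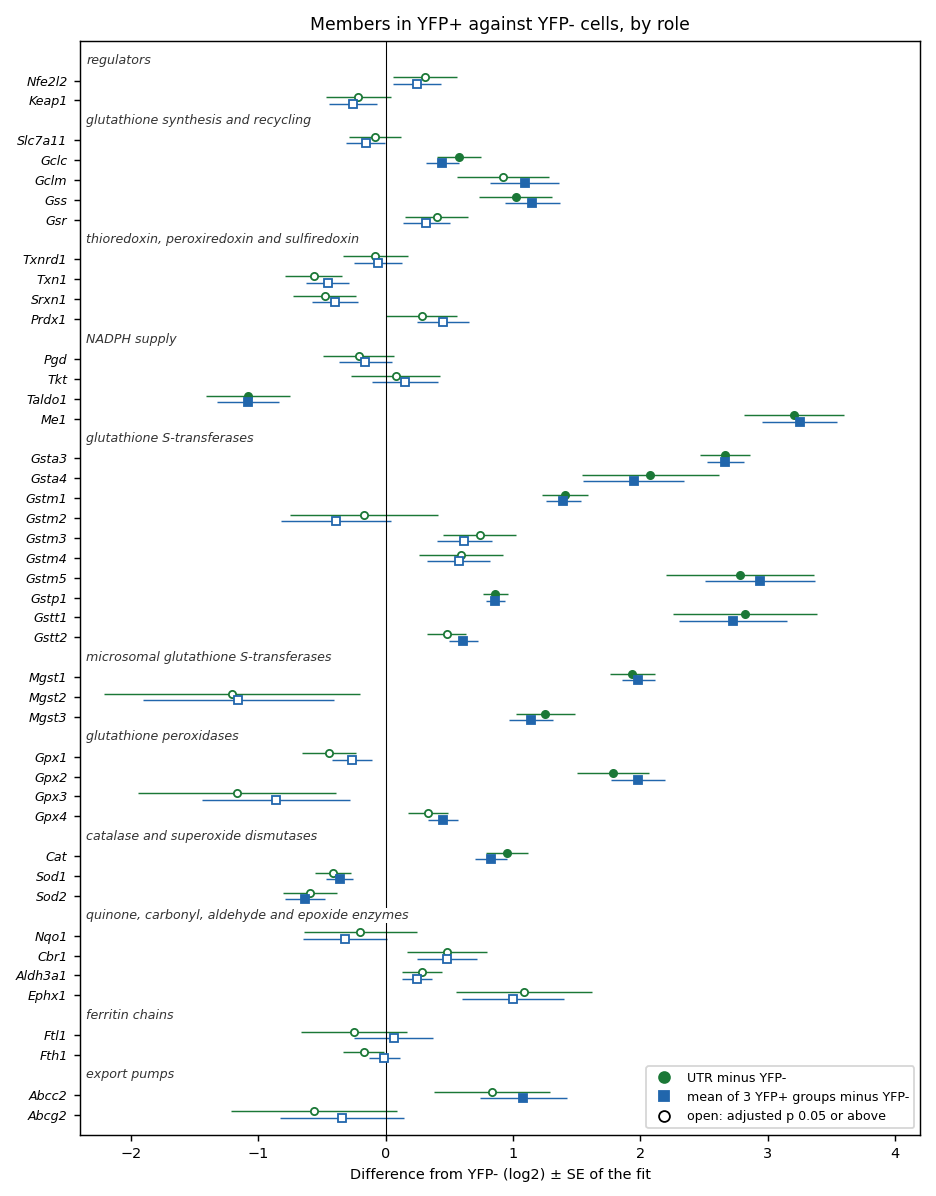
Differences of the 43 measured members from YFP- cells (x axis, log2 units; bars, SE of the limma fit), grouped by role, for untreated YFP+ cells (circles) and for the mean of the 3 YFP+ groups (squares). Filled symbols have an adjusted p under 0.05: 14 circles and 20 squares, with Me1 farthest to the right and most transferases right of 0.

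Short promoter sequences are shown for 8 members, because the DNA element that NRF2 and its MAF partner recognise can be read directly in them. The RefSeq promoter table (GRCm38.p6) gives 300 bases per start site, 250 before it and 50 after, and was searched on both strands for TGACNNNGC, the core of the antioxidant response element. Capitals mark the match, and each line is printed on the strand that carries the core.

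Me1, chr9:86695902-86695930, minus strand: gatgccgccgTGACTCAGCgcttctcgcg
Prdx1, chr4:116685456-116685484, minus strand: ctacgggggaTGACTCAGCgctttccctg
Gsta3, chr1:21240454-21240482, plus strand: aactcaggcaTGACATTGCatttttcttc
Gstm5, chr3:107895802-107895830, plus strand: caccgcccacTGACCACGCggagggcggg
Mgst1, chr6:138140461-138140489, minus strand: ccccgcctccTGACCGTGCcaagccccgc
Gclm, chr3:122245413-122245441, minus strand: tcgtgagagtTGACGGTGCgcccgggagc
Txnrd1, chr10:82859104-82859132, minus strand: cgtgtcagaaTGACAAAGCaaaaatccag
Abcc2, chr19:43782200-43782228, plus strand: ctcactgggaTGACATAGCattcatctag

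Me1 and Prdx1 hold the same 9 bases, TGACTCAGC, which occur in 149 windows (0.454% of 32851) and which also contain a core of the AP-1 type. The general core was in a window of 12 of the 38 measured members that had one (31.6%), in 10 of 47 other pathway genes (21.3%) and in 14.0% of all 27025 genes with a window. Among the 14 members with a window that were higher in YFP+ cells on average, 6 held it, as did 1 of 3 lower members and 5 of 21 members without a call. The printed set is a choice that holds all 6 of those higher members: Me1, Gsta3, Gstm5, Mgst1, Gclm and Abcc2. Gclm and Abcc2 passed for the YFP+ mean alone. Prdx1 and Txnrd1, with no call, were also printed. The measured members with the core that were not printed are Sod1, which was lower, and Nfe2l2, Pgd and Srxn1, with no call. The mix of printed genes thus does not stand for all members with the core. A match is a description of these letters. It is not evidence of binding, and elements farther from the start site lie outside these windows.

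The regulators themselves gave no call in any of the 5 comparisons. Nfe2l2 read 11.76 and 11.31 in UTR, 11.31, 11.36 and 11.50 in CDE, 11.34, 11.53 and 11.60 in DDC, and 11.70, 10.75 and 11.23 in YFP- cells. YFP- replicate 1 was as high as the highest YFP+ arrays and replicate 2 the lowest of all, so the groups overlapped. The UTR group exceeded YFP- by 0.31 ± 0.25 (SE, adjusted p = 0.44). Keap1 read 6.56 and 6.52 in UTR, 6.32 to 6.72 in CDE, 6.15 to 6.60 in DDC, and 6.52, 6.45 and 7.29 in YFP- cells, with YFP- replicate 3 above all other arrays (UTR minus YFP- -0.22 ± 0.26, adjusted p = 0.62). NRF2 activity is set mainly through the stability of the protein, which these arrays do not measure.

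Glutathione is made in sequence by glutamate-cysteine ligase, whose catalytic subunit is GCLC and whose modifier subunit is GCLM, and by glutathione synthetase, GSS. Gclc read 8.23 and 8.57 in UTR and 7.93 to 8.37 on the 6 diet arrays, against 7.72, 7.73 and 8.03 in YFP- cells. Only DDC replicate 2 reached down to the highest YFP- array. Gclc passed narrowly, with UTR higher by 0.58 ± 0.17 (adjusted p = 0.048) and the YFP+ mean by 0.44 ± 0.13 (adjusted p = 0.029). Gss read 8.38 and 7.72 in UTR, 8.16 to 8.50 in CDE and 8.11 to 8.25 in DDC, against 6.86, 6.61 and 7.62 in YFP- cells. All YFP+ arrays were above all YFP- arrays, UTR replicate 2 by little, and the YFP+ mean was higher by 1.15 ± 0.22 (2.22-fold, adjusted p = 0.0034) and UTR by 1.02 ± 0.29 (adjusted p = 0.038). Gclm read 9.42 and 9.36 in UTR, 9.73 to 9.91 in CDE and 9.29 to 9.70 in DDC, against 8.58, 7.63 and 9.20 in YFP- cells. Its YFP+ arrays again stood above all YFP- arrays, and only the YFP+ mean passed (1.09 ± 0.27, adjusted p = 0.014, against 0.92 ± 0.36 and 0.11 for UTR). The YFP+ mean difference of Gclm was 0.67 without YFP- replicate 2 and 1.46 without replicate 3, and passed in both cases. Gsr, the reductase that regenerates glutathione, did not pass (UTR minus YFP- 0.40 ± 0.25, adjusted p = 0.31). Slc7a11, the cystine importer that supplies the limiting amino acid, lay below the lower quartile of its array on all 11 arrays (3.52 to 4.32), and no level difference was detectable there. The UTR calls for Gclc and for Gss were each lost in 9 of 11 fits that left out 1 array, with adjusted p up to 0.316 and 0.279.

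The thioredoxin system, a second electron supply for peroxide removal, gave no call in 4 measured members. Txn1, thioredoxin itself, read 9.34 and 9.88 on YFP- replicates 2 and 3 and 8.71 to 9.21 in YFP+ cells, with YFP- replicate 1 within that range (YFP+ mean minus YFP- -0.46 ± 0.17, adjusted p = 0.07). Srxn1, which repairs over-oxidised peroxiredoxins, differed by -0.40 ± 0.18 (adjusted p = 0.13), and Txnrd1, thioredoxin reductase, by -0.06 ± 0.19 (adjusted p = 0.84). Prdx1, a peroxiredoxin, read 9.85, 9.47 and 10.60 in YFP- cells and 10.09 to 10.71 in YFP+ cells (0.45 ± 0.21, adjusted p = 0.13). For each of these 4 genes YFP- replicate 3 was the highest YFP- array, and it was also the array with the highest macrophage and hepatocyte marker means. The part of either in these values was not tested.

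Among the enzymes that feed NADPH to the glutathione and thioredoxin reductases, the extremes lay in opposite directions. Me1, cytosolic malic enzyme, which makes NADPH from malate, read 8.87 and 8.57 in UTR, 8.30, 8.57 and 8.67 in CDE, 9.16, 9.06 and 8.92 in DDC, and 6.48, 4.91 and 5.13 in YFP- cells. All YFP+ arrays stood well above all YFP- arrays, of which replicate 1, the one with biliary transcripts, was the highest. UTR exceeded YFP- by 3.21 ± 0.39 (9.25-fold, adjusted p = 0.00064), the largest difference of any measured member, and the difference without YFP- replicate 1 was 3.70. Taldo1, transaldolase of the pentose phosphate pathway, read 9.21 and 8.97 in UTR, 8.95 to 9.21 in CDE, 9.06 to 9.21 in DDC, and 9.41, 10.28 and 10.82 in YFP- cells. It was lower on every YFP+ array than on any YFP- array. The YFP+ mean differed by -1.08 ± 0.24 (adjusted p = 0.0088), and the UTR call (-1.08 ± 0.33, adjusted p = 0.048) was lost in 10 of 11 fits without 1 array. Pgd and Tkt, also of that pathway, did not pass (UTR minus YFP- -0.21 ± 0.28 and 0.08 ± 0.35).

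Glutathione S-transferases join glutathione to electrophiles and are named by class: alpha, mu, pi and theta. Of the 10 measured, 6 were higher in UTR than in YFP- cells and 7 for the YFP+ mean, and none was lower. Of all genes, 10.4% and 16.3% were higher in these comparisons, and 8.46% and 14.3% lower. The median difference of the class from YFP- was 1.13 log2 units in both comparisons. Gsta3, an alpha enzyme, read 9.65 and 9.89 in UTR, 10.04, 10.09 and 9.87 in CDE, 9.47, 9.52 and 9.65 in DDC, and 7.42, 7.19 and 6.70 in YFP- cells. The 2 sets were far apart, and UTR was higher by 2.67 ± 0.20 (6.35-fold, adjusted p = 6.5e-05). Gsta4, an alpha enzyme known for clearing the lipid peroxidation product hydroxynonenal, read 7.26 and 9.45 in UTR, 7.80 to 8.29 in CDE, 7.95 to 8.52 in DDC, and 6.77 on YFP- replicate 3, with replicates 1 and 2 lower still. Both UTR arrays lay above the YFP- arrays but were the lowest and the highest of the 8 YFP+ arrays. The UTR difference was 2.08 ± 0.54 (adjusted p = 0.025), and without UTR replicate 2 it was 0.98 (adjusted p = 0.134) and without UTR replicate 1 it was 3.18. The YFP+ mean differed by 1.95 ± 0.40 (adjusted p = 0.0054).

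Gstp1, the single pi enzyme of the list and known to be abundant in bile duct cells, was even within both sets of arrays. It read 12.60 to 12.79 on the 8 YFP+ arrays and 11.78, 11.82 and 11.81 on the YFP- arrays. Each YFP+ array was thus above each YFP- array, by a difference of 0.86 ± 0.10 for UTR (1.81-fold, adjusted p = 0.00045), which stayed between 0.80 and 0.92 whichever array was left out. Gstt1, a theta enzyme, read 10.43 and 10.25 in UTR, up to 10.51 in CDE, 10.02 to 10.24 in DDC, and 8.98, 6.96 and 6.62 in YFP- cells. YFP- replicate 1 was again the nearest to the YFP+ arrays, and UTR was higher by 2.82 ± 0.57 (7.07-fold, adjusted p = 0.0076, and 0.0594 without UTR replicate 1). Gstt2 read 7.56 to 8.05 in YFP+ cells and 7.33, 7.04 and 6.99 in YFP- cells. Its YFP+ arrays also did not overlap the YFP- arrays, and it passed for the YFP+ mean (0.61 ± 0.11, adjusted p = 0.0032) but not for UTR (0.48 ± 0.15, adjusted p = 0.057).

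**Figure D2:**
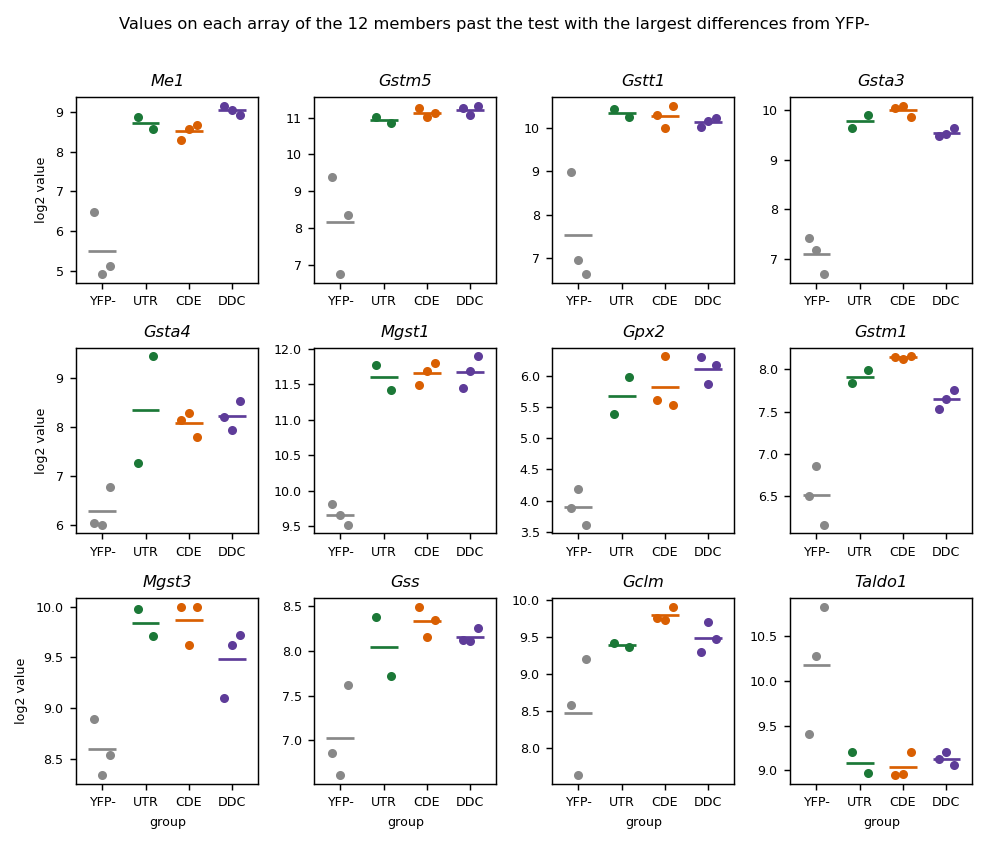
The log2 value on each array (points) and the group mean (lines) for the 12 members past the test with the largest differences from YFP- cells, 1 panel per gene and 1 column per group (YFP-, UTR, CDE, DDC). In 11 panels every YFP+ array stands above every YFP- array, and for Taldo1 every YFP+ array stands below.

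The mu transferases lie side by side on chromosome 3 in the order Gstm5, Gstm7, Gstm6, Gstm3, Gstm2, Gstm1 and Gstm4. Both UTR arrays stood above all YFP- arrays for each of them except Gstm2, by differences of unlike size. Gstm5, at one end, read 11.02 and 10.86 in UTR, 11.01 to 11.28 in CDE, 11.08 to 11.33 in DDC, and 9.38, 6.74 and 8.36 in YFP- cells. The YFP+ arrays spread by little and the YFP- arrays widely, and UTR was higher by 2.78 ± 0.58 (6.87-fold, adjusted p = 0.0093, and 0.0574 to 0.0669 without either UTR array). Gstm1 read 7.84 and 7.99 in UTR, 8.13 to 8.16 in CDE, 7.54 to 7.75 in DDC, and 6.50, 6.86 and 6.16 in YFP- cells. It was higher on every YFP+ array (UTR 1.41 ± 0.18, adjusted p = 0.00084). Gstm2, between Gstm3 and Gstm1, read 10.78 on YFP- replicate 1, above all other arrays, and 8.33 and 9.03 on the other YFP- arrays, against 8.54 to 9.33 in YFP+ cells. UTR differed from YFP- by -0.17 ± 0.58 (adjusted p = 0.88). Gstm3 and Gstm4 differed by 0.74 ± 0.29 and 0.59 ± 0.33 and did not pass (adjusted p = 0.11 and 0.27). Gstm6 and Gstm7, which are outside the list, were higher for the YFP+ mean (2.06 ± 0.25, adjusted p = 0.00028, and 2.84-fold, adjusted p = 0.0021). These genes are close copies of each other, so probes can be shared between them, and the array annotation does not show how much of each value belongs to its neighbours.

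**Figure D3:**
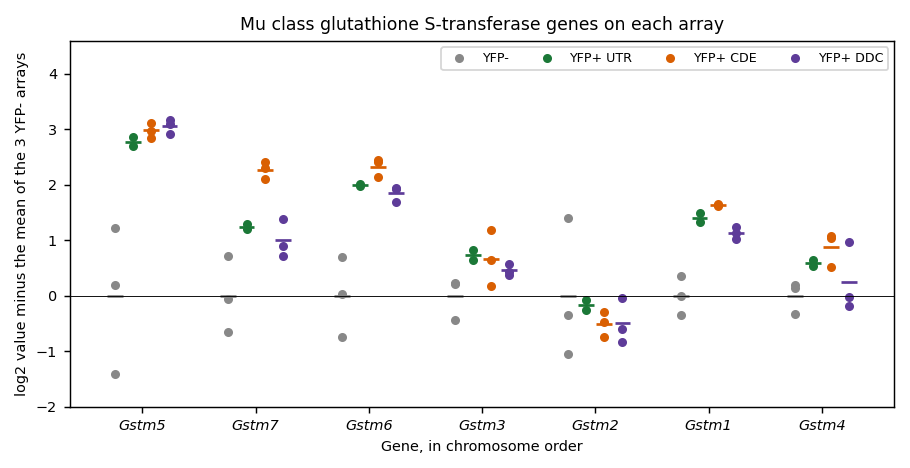
Values of the 7 mu class genes on each array, as the log2 value minus the mean of the 3 YFP- arrays of the same gene, in chromosome order (points, arrays; lines, group means). Gstm5, Gstm7, Gstm6 and Gstm1 sit above 0 in all YFP+ groups, and the YFP+ group means of Gstm2 sit below it. The CDE arrays of Gstm7, Gstm6 and Gstm1 stand above their UTR and DDC arrays.

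The microsomal transferases, membrane enzymes that also reduce lipid peroxides, were higher in YFP+ cells in 2 of 3 cases. Of all genes, 10.4% were higher for UTR and 16.3% for the YFP+ mean. Mgst1 read 11.42 to 11.90 on the 8 YFP+ arrays and 9.82, 9.65 and 9.52 on the YFP- arrays. No YFP- array came near the YFP+ arrays, and the UTR difference was 1.94 ± 0.18 (3.83-fold, adjusted p = 0.00017). Mgst3 read 9.98 and 9.71 in UTR, 9.62 or more in CDE, 9.10 to 9.72 in DDC, and 8.90, 8.34 and 8.54 in YFP- cells. It was higher in UTR by 1.25 ± 0.23 (adjusted p = 0.0051, and 0.0541 without UTR replicate 1). Mgst2 read 9.95 on YFP- replicate 2, the array with lymphocyte and the highest neutrophil transcripts (mean of 5 neutrophil and monocyte markers 10.48), and 5.74 to 7.11 on all others. Its difference carried the widest interval of all members (-1.21 ± 1.01, adjusted p = 0.46).

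Glutathione peroxidases reduce peroxides at the expense of glutathione. Gpx2, known as an epithelial enzyme, read 5.38 and 5.97 in UTR, 5.54 to 6.31 in CDE, 5.86 to 6.30 in DDC, and 3.87, 4.19 and 3.62 in YFP- cells, where all 3 arrays lay below their lower quartile. It was at least 2.52-fold higher in UTR, with each YFP- array set to its lower quartile, and the test of the values as measured gave an adjusted p of 0.0025. Gpx4, which protects membrane lipids, read 4.65 to 5.17 in YFP+ cells and 4.31 to 4.74 in YFP- cells. These values were close to the lower quartiles of the arrays (4.28 to 4.38), and 1 array lay below its own. Gpx4 passed for the YFP+ mean (0.45 ± 0.12, adjusted p = 0.017) and not for UTR (0.33 ± 0.16, adjusted p = 0.18). The first call was lost without YFP- replicate 1 or 3 (adjusted p = 0.0533 and 0.0678). Gpx1 read 11.52 to 12.02 in YFP+ cells and 11.74, 11.94 and 12.55 in YFP- cells (UTR minus YFP- -0.45 ± 0.21, adjusted p = 0.18). Gpx3, the secreted form, read 7.99, 5.44 and 8.79 in YFP- cells and 6.06 to 7.38 in YFP+ cells, so the YFP- arrays fell on both sides of the YFP+ arrays (-1.17 ± 0.78, adjusted p = 0.35).

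Catalase and the superoxide dismutases, the glutathione-independent enzymes, separated. Cat, which destroys hydrogen peroxide in peroxisomes, read 10.84 and 10.87 in UTR, 10.94, 10.86 and 11.12 in CDE, 10.24, 10.30 and 10.50 in DDC, and 9.85, 9.65 and 10.20 in YFP- cells. All YFP+ arrays were above all YFP- arrays, the DDC arrays by least, and UTR was higher by 0.95 ± 0.17 (1.94-fold, adjusted p = 0.004). Sod1, the cytosolic dismutase, read 11.18 to 11.58 in YFP+ cells and 11.65, 11.87 and 11.87 in YFP- cells. Sod2, the mitochondrial one, read 8.22 to 8.64 in YFP+ cells and 8.75, 9.15 and 9.52 in YFP- cells. Both were lower on every YFP+ array and passed for the YFP+ mean (-0.36 ± 0.10, adjusted p = 0.028, and -0.63 ± 0.16, adjusted p = 0.014), not for UTR (adjusted p = 0.072 and 0.083). The Sod1 call was lost without YFP- replicate 2, YFP- replicate 3 or UTR replicate 2 (adjusted p = 0.0822, 0.0872 and 0.0684) and under quantile normalization (-0.16, adjusted p = 0.231).

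The remaining members gave 1 call among 8, for the YFP+ mean, where 30.5% of all genes were called. Nqo1, a quinone reductase and the usual reporter of NRF2 activity, read 4.53 and 4.82 in UTR, 4.53, 4.53 and 4.76 in CDE, 4.47, 4.53 and 4.15 in DDC, and 5.97, 4.11 and 4.53 in YFP- cells. Only YFP- replicate 1 stood apart. Exactly the same Nqo1 value stood on 5 arrays, as happened on at least 5 arrays for 515 features of the table (2.04%), so this feature resolved little between the groups (UTR minus YFP- -0.20 ± 0.44, adjusted p = 0.8). Cbr1, a carbonyl reductase, Aldh3a1, an aldehyde dehydrogenase, and Ephx1, microsomal epoxide hydrolase, differed in UTR by 0.48 ± 0.31, 0.28 ± 0.16 and 1.08 ± 0.53 and did not pass. Ephx1 read 10.23 on YFP- replicate 3, above all YFP+ arrays (9.54 to 10.15), and 8.41 and 8.03 on the other YFP- arrays. Fth1 and Ftl1, the heavy and light ferritin chains that store iron, differed by -0.17 ± 0.16 and -0.25 ± 0.42, and Ftl1 lay below the lower quartile on 5 arrays. Abcc2, the canalicular pump for glutathione conjugates, read 5.36 and 6.42 in UTR, 6.52, 7.76 and 6.35 in CDE, 5.79, 5.33 and 5.79 in DDC, and 4.69, 4.97 and 5.51 in YFP- cells. It passed for the YFP+ mean (1.08 ± 0.34, adjusted p = 0.04), a call lost without DDC replicate 1 or 3, UTR replicate 2, or YFP- replicate 1 or 2 (adjusted p = 0.0677 to 0.116) and with array weights (0.32). Abcg2, an export pump for drugs and porphyrins, read 8.71, 5.83 and 7.75 in YFP- cells, on both sides of the YFP+ arrays (6.62 to 7.62).

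Counted over all fits that left out 1 array, 7 of the 14 members called for UTR passed every time, all of them higher: Me1, Gsta3, Gstm1, Gstp1, Mgst1, Gpx2 and Cat. For the YFP+ mean, 16 of 20 passed every time, 14 of them higher. The Gclc call for the YFP+ mean was among those lost, in 6 fits, with adjusted p up to 0.0872. How many of all called genes passed in every such fit was not counted. In a fit of the 5 UTR and YFP- arrays alone, 4 members passed for UTR, beside 931 of all genes (4373 with all 11 arrays). Of the 7 UTR members named above, Me1, Gstm1 and Cat did not pass there. Their adjusted p were 0.0514, 0.0549 and 0.0811 at the same differences. Without YFP- replicate 1, the array with biliary transcripts, 12 members were higher and 5 lower in UTR, beside 2911 and 2906 of all genes. Without replicate 2 the counts were 11 and 2, beside 2558 and 2210 of all genes. Without replicate 3, the array richest in macrophage transcripts, they were 18 and 0, beside 2292 and 1916.

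The question put to the diets was whether YFP+ cells of injured liver differed in these genes from untreated YFP+ cells, and it was read from a fit of the 8 YFP+ arrays alone. No member passed for CDE against UTR (0% of all genes passed) or for DDC against UTR (0.16% of all genes, 0.0949% higher and 0.0647% lower), at lowest adjusted p of 0.692 and 0.182. At an unadjusted p under 0.05 there were 3 members (6.98%) and 5 members (11.6%), near the 6.44% and 10.4% of all genes. The median differences were 0.03 and 0.04. The 95% intervals had a median half-width of 0.34 log2 units, and lay within a change of 1 log2 unit either way for 39 members after CDE and 36 after DDC. Changes of that size were thus outside the interval for most members, while Gsta4, with intervals of -1.49 to 0.95 and -1.35 to 1.09, was the least resolved. A narrow interval sets no such bound for a low feature such as Slc7a11 or for Nqo1, and such features were not taken out of these counts. These comparisons share the 2 UTR arrays.

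For Nfe2l2 the interval ran from -0.49 to 0.21 after CDE and from -0.39 to 0.30 after DDC. For Gclc the bounds were -0.54 to 0.21 and -0.61 to 0.14. The Nqo1 intervals (-0.42 to 0.28 and -0.64 to 0.06) came from the feature with the same value on 5 arrays, and set no such bound on that gene. Gclm stood higher on all CDE than on all UTR arrays, by 0.41 ± 0.13 (adjusted p = 0.69). It was 1 of 5 members so placed, with Gstm1, Gstt2, Gpx1 and Fth1 (11.5% of all genes were), and Gstm2 alone was below (10.5% of all genes). After DDC, 8 members stood above all UTR arrays (12.7% of all genes): Prdx1, Pgd, Me1, Gstm5, Gstt2, Gpx1, Gpx3 and Ftl1. Another 4 stood below (11.8% of all genes): Gstm1, Gstm3, Gstt1 and Cat. The largest difference from UTR after DDC was that of Gpx3 (7.38, 6.59 and 7.11 against 6.42 and 6.06, or 0.79 ± 0.22, adjusted p = 0.25). Ftl1 read 5.97 on DDC replicate 2 and 4.55 and 4.31 on the other DDC arrays, against 4.11 and 4.26 in UTR, both below the lower quartile of their array. Its fitted difference of 0.76 ± 0.42 (adjusted p = 0.58) became 0.25 without DDC replicate 2, so its place as the next largest rested on 1 array of a low feature. Abcg2 read 7.10, 7.38 and 7.62 in DDC and 7.10 and 6.62 in UTR (0.51 ± 0.19, adjusted p = 0.42, and 0.27 without UTR replicate 2). After CDE the largest difference was that of Abcc2 (0.99 ± 0.45, adjusted p = 0.79), which was 0.46 without UTR replicate 1 and 1.52 without UTR replicate 2. CDE replicate 2 read 7.76 for Abcc2, the highest of the 8 arrays, and had a hepatocyte marker mean of 8.58, against 7.49 and 7.48 on the other CDE arrays. Their part in the Abcc2 value was not tested.

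**Figure D4:**
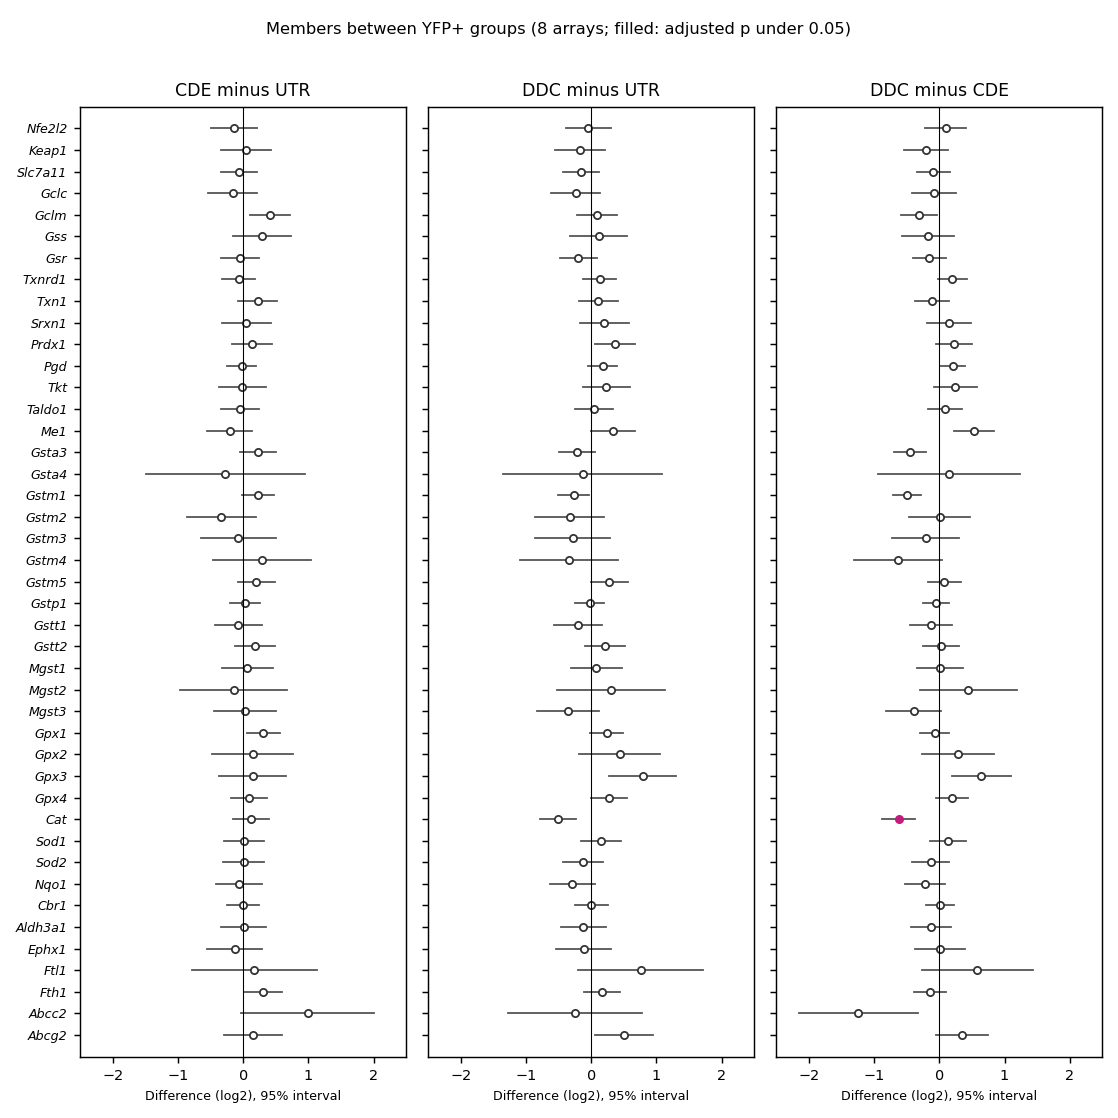
Differences of the 43 measured members between YFP+ groups (points, log2 units; bars, 95% intervals of the limma fit of 8 arrays) for CDE and DDC, each against UTR, and for DDC against CDE. Most intervals cross 0, the filled point is Cat (-0.62 for DDC minus CDE), and Gsta4 and Abcc2 have the widest bars.

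Between the 2 diets, Cat was the 1 member past the threshold (2.33% of members, against 1.16% of all genes, of which 97 were higher and 172 lower after DDC, or 0.418% and 0.742%, and 129 higher and 143 lower after quantile normalization). The Cat arrays given above placed all DDC below all UTR and all CDE arrays, and DDC was lower than CDE by 0.62 ± 0.11 (-0.62, interval -0.87 to -0.38, adjusted p = 0.041). The differences from UTR were -0.50 ± 0.12 for DDC (adjusted p = 0.18) and 0.12 ± 0.12 for CDE (adjusted p = 0.95). This call was lost whichever of the 8 arrays was left out (adjusted p = 0.0563 to 0.146), with quantile normalization (0.0541), and with the 3 YFP- arrays in the fit (0.253), while the difference itself stayed between -0.70 and -0.52. Gstm1 was next, lower after DDC by 0.50 ± 0.09 with no overlap (-0.50, adjusted p = 0.051), and passed where arrays were centred on their medians (adjusted p = 0.0489) or weighted (0.0484). Gsta3 (-0.45 ± 0.11, adjusted p = 0.1), Me1 (0.54 ± 0.13, adjusted p = 0.11) and Abcc2 (-1.24 ± 0.40, adjusted p = 0.19, and -0.80 without CDE replicate 2) did not overlap between the diets and did not pass. Gpx3, higher on every DDC array (0.65 ± 0.20, adjusted p = 0.18), and Gstm4, which overlapped (-0.63 ± 0.29, adjusted p = 0.36), did not pass either. In all, 5 members stood higher on every DDC than every CDE array (9.64% of all genes) and 6 lower (10.6% of all genes). Albumin, a defining hepatocyte transcript, was also lower after DDC than after CDE (11.70 to 11.86 against 12.48 to 12.58, -0.73 ± 0.09, adjusted p = 0.016), while the 10 hepatocyte markers together averaged 7.37 to 7.53 against 7.48 to 8.58. The part of hepatocyte RNA in these values was not tested.

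**Figure D5:**
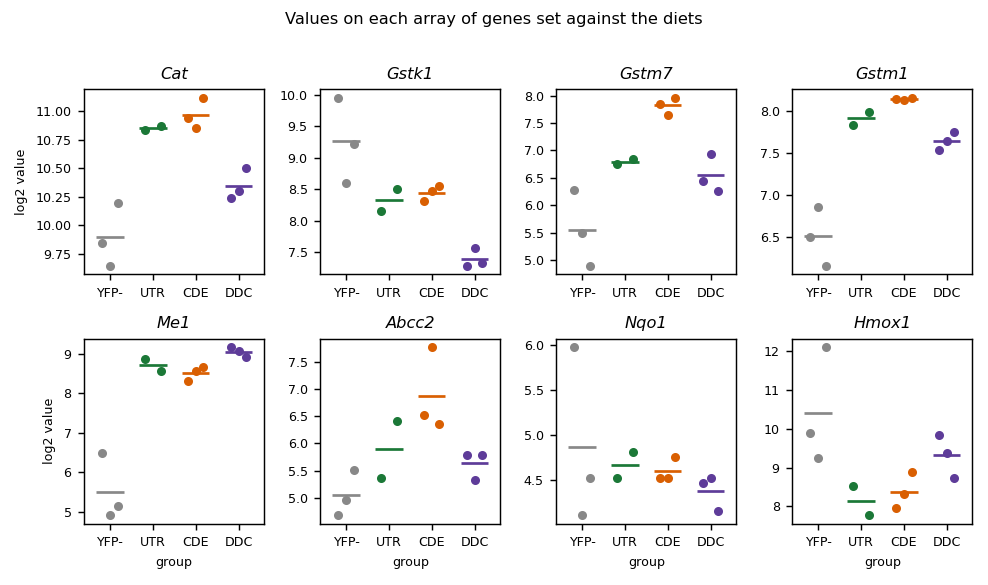
The log2 value on each array (points) and the group mean (lines) of 8 genes, 1 panel per gene and 1 column per group (YFP-, UTR, CDE, DDC): Cat, Gstk1, Gstm7 and Gstm1 above, Me1, Abcc2, Nqo1 and Hmox1 below. In the panels of Cat, Gstk1 and Gstm7 no DDC array reaches a CDE array, and Nqo1 varies by less than 1 log2 unit outside YFP- replicate 1.

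The 50 other pathway genes gave 10 higher and 7 lower in UTR than in YFP- cells (34%, against 18.9% of all genes, 10.4% higher and 8.46% lower). For the YFP+ mean, 12 were higher and 10 lower (44%, against 30.5% of all genes, 16.3% higher and 14.3% lower). Cbs, which starts the route from homocysteine to cysteine, was higher in UTR by 3.45 ± 0.29 (9.54 and 9.71 against 6.84 or less, adjusted p = 0.00013). Ptgr1, a reductase of prostaglandins and unsaturated aldehydes, was higher by 2.78 ± 0.35 (adjusted p = 0.00076). Osgin1, an oxidative stress-induced growth inhibitor, was higher by 2.17 ± 0.29 (adjusted p = 0.001). Of the 10 other transferase, peroxidase and dismutase genes measured, 5 were higher and 1 lower in UTR. Sod3 was higher by 2.31 (adjusted p = 0.015) and Gstt3 by 1.88 (adjusted p = 0.0062). Neither passed in the fit of the 5 UTR and YFP- arrays alone (adjusted p = 0.148 and 0.097). On the other side, Slc3a2, the heavy chain that SLC7A11 needs at the membrane, read 7.94 and 7.37 in UTR and 9.86, 9.90 and 9.88 in YFP- cells, and was lower by 2.22 log2 units (-2.22 ± 0.16, adjusted p = 5.5e-05). Bach1, a repressor that competes with NRF2 for its elements, was lower (-0.94 ± 0.17, adjusted p = 0.0041), as was the partner gene Mafg (-0.92 ± 0.27, adjusted p = 0.044, a call lost in 10 of 11 fits without 1 array). Gsto1, the omega transferase, was lower as well (-1.54 ± 0.42, adjusted p = 0.031, a call lost without UTR replicate 1, YFP- replicate 3 or CDE replicate 2, at 0.255, 0.073 and 0.0508).

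Hmox1 and Blvrb, which turn heme into biliverdin and biliverdin into bilirubin, were highest on YFP- replicate 3. Hmox1 read 8.52 and 7.77 in UTR, 7.95, 8.32 and 8.87 in CDE, 9.83, 9.36 and 8.74 in DDC, and 9.89, 9.26 and 12.10 in YFP- cells. The DDC arrays overlapped the YFP- arrays and, by 1 array, the CDE arrays, and all lay above both UTR arrays. DDC minus UTR was 1.17 ± 0.38 (interval 0.31 to 2.03, adjusted p = 0.33), and the YFP+ mean was lower than YFP- (-1.80 ± 0.54, adjusted p = 0.033, lost in 6 of 11 fits without 1 array, with -0.96 and 0.0772 without YFP- replicate 3). Blvrb differed in UTR by -2.16 ± 0.51 (adjusted p = 0.016, and 0.0882 to 0.0945 without either UTR array). Macrophages are known for heme breakdown, and replicate 3 had the highest mean of the 6 macrophage markers. Their part in the Hmox1 and Blvrb values was not tested.

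No other pathway gene passed for CDE or DDC against UTR (0% and 0.16% of all genes passed). Between the diets 2 passed, both lower after DDC (4% of the 50 measured, against 1.16% of all genes). Gstk1, the kappa transferase of mitochondria and peroxisomes, read 8.31, 8.47 and 8.55 in CDE, 7.28, 7.56 and 7.33 in DDC and 8.15 and 8.51 in UTR. The DDC arrays lay below all other arrays, YFP- included, and the difference was -1.05 ± 0.13 (adjusted p = 0.017, and over 0.05 in 5 of 8 fits without 1 array, with a highest value of 0.0753). With the 3 YFP- arrays in the fit the Gstk1 call was lost (adjusted p = 0.321). Gstm7 read 7.86, 7.65 and 7.96 in CDE, 6.45, 6.94 and 6.27 in DDC and 6.75 and 6.84 in UTR. Here the CDE arrays were the ones set apart, above both other YFP+ groups (DDC minus CDE -1.27 ± 0.17, adjusted p = 0.022, and over 0.05 in 4 of 8 fits without 1 array, with a highest value of 0.0951). That call was also lost with the YFP- arrays in the fit (0.258) and with the replicate number as a block (0.0648). The 10 other peroxiredoxin, thioredoxin and glutaredoxin genes measured gave no call between YFP+ groups. Of these 10, 9 were positive for CDE minus UTR (median 0.31) and 9 negative for DDC minus CDE (median -0.42), comparisons that share the CDE arrays. Of all 23185 genes, 11835 were positive for the first and 10902 negative for the second. These signs were not tested as a set.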

How the data were processed

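The authors deposited a table of log2 values, 1 per feature and array, for 11 arrays. That the logarithm has base 2 is an inference from their range. How background, normalization and probe summary were handled is not given in the sources used here. Of 25206 features, 23185 had 1 symbol in the platform annotation, 2021 had none and 0 had several. Unnamed features were not tested.

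In R 4.3.3, limma 3.58.1 estimated the group means by lmFit and eBayes (two-sided), with Benjamini-Hochberg adjustment over 23185 genes and a threshold of 0.05. Comparisons with YFP- cells used all 11 arrays (7 residual degrees of freedom), those among YFP+ groups the 8 YFP+ arrays (5 residual degrees of freedom). Precision is limited by how few arrays each group has. The ± beside a difference is its SE. It pools the spread of all groups in the fit, and so may be too small for comparisons with YFP- cells. The median SD of the members was 0.44 in YFP- cells and 0.14, 0.14 and 0.15 in CDE, DDC and UTR. A value below the lower quartile of its array was called low. The fit was checked on simulated data that had the same spread in every group. That check does not cover the wider spread of the YFP- arrays.

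The members and lists were chosen with earlier results of these data known. Array values are given for members past the test between diets, the 12 largest past the test against YFP-, the 3 largest in each diet comparison, and fixed genes. Up to 4 called genes per pathway list are named. Other members are given by ranges or differences, and ones named with array values beyond this rule were chosen after their values were seen. Samples with the same replicate number were not treated as pairs in the main fits, and the labels do not say whether they belong together.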

Additional observations from a re-analysis of the deposited data

Results flagged for a closer look

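Cat, Gstk1 and Gstm7 passed the test of the difference between the 2 diets itself, in the fit of the 8 YFP+ arrays. All 3 calls were lost with the 3 YFP- arrays in the fit (adjusted p = 0.253, 0.321 and 0.258). The Cat call was also lost in every fit without 1 array, and the Gstk1 and Gstm7 calls in some of those fits. DDC minus CDE was -0.62 for Cat, -1.05 for Gstk1 and -1.27 for Gstm7 (log2), at limma adjusted p of 0.041, 0.017 and 0.022. All 3 genes were lower on every DDC than on every CDE array. Against untreated cells, Cat and Gstk1 were displaced after DDC (-0.50 and -0.94, adjusted p = 0.18 and 0.069) and Gstm7 after CDE (1.03, adjusted p = 0.35), and none of those passed. Groups of 2 or 3 arrays were too small for a test of single outlying samples.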

How the results depend on the processing

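None of the member calls changed sign under any alternative. Among members without a call, 9 of 29 changed sign in at least 1 alternative for UTR against YFP- (Keap1, Nqo1 and Gstm2 among them), 11 of 23 for the YFP+ mean, 29 of 43 for CDE against UTR, 11 of 43 for DDC against UTR and 9 of 42 for DDC against CDE. For UTR against YFP-, the 5 arrays alone called 931 genes (529 higher, 402 lower) and 4 members, and quantile normalization gave a member median of 0.55. Leaving out 1 array gave 2306 to 5817 genes, 8 to 18 members and medians of 0.29 to 0.43. For the YFP+ mean, array weights called 4534 genes, and leaving out 1 array gave 5887 to 7797 genes, 17 to 22 members and medians of 0.25 to 0.44. For CDE against UTR, 1 gene was called with centred arrays, trend and robust eBayes, array weights or low features left out, and 0 to 46 without 1 array, with 0 members and medians of -0.02 to 0.08. For DDC against UTR, 0 genes were called with all 11 arrays and 0 to 103 without 1 array, with 0 members and medians of -0.0187 to 0.12. For DDC against CDE, quantile normalization called 0 members, a median of 0.0669 and 272 genes split 129 higher to 143 lower (97 to 172 as deposited). Centring and array weights called 2 members each, all 11 arrays 1 gene and 0 members, and leaving out 1 array 16 to 211 genes, 0 members and medians of -0.0929 to 0.012. The cause was not tested.

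Same-numbered samples did not deviate together (r of -0.07 to 0.13 over 15 pairs). With the replicate number as a block, DDC against UTR gave 0 genes and DDC against CDE 61 genes and 0 members, while UTR against YFP- gave 12 members and the YFP+ mean 20. Array weights ended the YFP+ mean calls of Gclc, Gsta4, Gpx4, Sod1 and Abcc2 (adjusted p = 0.0713 to 0.32). With 2 UTR arrays and 5 residual degrees of freedom, the unadjusted 95% intervals had a median half-width of 0.34, and differences from UTR as large as 0.99 (Abcc2) did not pass.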
